A study of Mus musculus with 12 samples.

Results

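Among nuclei from young perirenal fat, 955 carried transcripts of the distal kidney tubule or its collecting system, and these are described here. They came from 2 libraries of the depot that the labels call mPRAT, an abbreviation usually read as medial perirenal adipose tissue, the fat beside the kidney. A nucleus was chosen when its UMIs (unique molecular identifiers, the count of distinct captured RNA molecules) for Slc12a3, Slc14a2, Slc12a1, Umod, Egf, Pkhd1, Epcam and Cdh1 summed to at least 3, came from at least 2 of these genes, and outnumbered both the summed UMIs of 4 proximal tubule genes (Slc34a1, Lrp2, Cubn, Slc5a12) and those of 5 fat tissue genes (Adipoq, Plin1, Acsl1, Flt1, Lama2). Eligible nuclei had 300 or more genes seen and no more than 10% of their UMIs from mitochondrial genes. The rule took 512 of 5391 eligible nuclei at 1 month (9.50%, exact 95% binomial interval 8.73% to 10.3%) and 443 of 6156 at 2 months (7.20%, 6.56% to 7.87%), which makes 955 of 11547.

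The study profiled brown and white fat depots of male C57BL/6J mice on normal chow by single-nucleus RNA sequencing, in 12 libraries with 106898 eligible nuclei. The young mPRAT libraries came from mice of 4 weeks (1 month) and 8 weeks (2 months) kept at 22 °C. Further mPRAT libraries, used here only for reference, came from mice labelled 6 months in the title and 16 weeks in the age field, at 22 °C or after 3 days at 4 °C. No genotype other than the strain was given, nuclei were sorted on the DNA dye 7-AAD, and the number of animals behind a library was not stated. Each group was 1 library, so no difference between ages could be tested; intervals below are 95% counting intervals, which do not cover the spread between animals or dissections. The libraries held 11565118 UMIs at 1 month and 26047446 at 2 months, and the median chosen nucleus held 1109 and 5406 UMIs, a gap in depth that stands beside every share of nuclei given below.

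As background, filtrate that leaves the proximal tubule passes the loop of Henle, whose thick ascending limb reabsorbs salt through the cotransporter Slc12a1 and secretes uromodulin (Umod). The distal convoluted tubule reabsorbs salt through Slc12a3, the target of thiazide diuretics, under control of the WNK kinases. The connecting tubule and collecting duct then adjust sodium, potassium, calcium, acid and water, the last with the help of the urea transporter gene Slc14a2, and urine leaves through the renal pelvis and ureter, which are lined by urothelium. Pkhd1 encodes fibrocystin, the protein mutated in recessive polycystic kidney disease, and Cdh1 and Epcam encode adhesion proteins of epithelia in general.

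Of the rule's genes, Slc12a3 and Umod are textbook markers of the convoluted tubule and the thick limb, and Pkhd1 led most nuclei at 2 months. Their upstream sequences are shown from the RefSeq promoter table (GRCm38.p6), each ending before the earliest annotated transcript start, 5′ to 3′ on the gene's strand. Slc12a3 is at chr8:94328958-94329108 on the plus strand, Umod at chr7:119479283-119479512 on the minus strand and Pkhd1 at chr1:20618083-20618307 on the minus strand. Capitals mark GTTAAT, letters of the site read by hepatocyte nuclear factor HNF1.
Slc12a3: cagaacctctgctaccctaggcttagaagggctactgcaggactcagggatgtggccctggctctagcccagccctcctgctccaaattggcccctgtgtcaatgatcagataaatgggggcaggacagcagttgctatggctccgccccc
Umod: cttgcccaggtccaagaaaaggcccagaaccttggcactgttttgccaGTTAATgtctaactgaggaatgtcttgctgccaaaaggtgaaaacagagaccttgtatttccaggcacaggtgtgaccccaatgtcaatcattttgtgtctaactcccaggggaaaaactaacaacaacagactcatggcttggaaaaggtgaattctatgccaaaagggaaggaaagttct
Pkhd1: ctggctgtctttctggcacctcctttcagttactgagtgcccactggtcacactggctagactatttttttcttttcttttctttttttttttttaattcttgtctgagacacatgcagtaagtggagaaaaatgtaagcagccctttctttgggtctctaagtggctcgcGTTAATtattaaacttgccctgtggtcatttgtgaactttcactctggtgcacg

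Counted from the start on which the RefSeq table places each window, downstream of the earliest annotated start where the printed stretches end, the match lies 202 bases upstream for Umod and 79 for Pkhd1, and the Slc12a3 stretch holds none. Searched on both strands in windows of 300 bases around every start of the table, GTTAAT occurred in 2332 of 32851 windows (7.10%). The rule's genes had 7 windows for 6 genes, of which those of Umod and Pkhd1 held GTTAAT and none held AAGGTCA, letters read by estrogen-related receptors (4.72% of all windows), or AACCNGTT, letters read by grainyhead factors (2.09%). Of the 3 windows found for the proximal tubule genes, that of Slc34a1 held GTTAAT. Such matches describe letters only.

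The label of a distal nephron population held for a part of the nuclei. Clustering without the marker genes divided the 955 nuclei into 8 classes with at least 3 listed markers each, apart from 1 that matched no list. Thick ascending limb-like, distal convoluted tubule-like, connecting tubule-like, principal cell-like and intercalated-like nuclei, together with a Slc14a2-high cluster, made up 539 of 955 (56.4%). Another 335 nuclei were urothelium-like, led by Upk1b, Krt20 and Htr4, and 81 were adipocyte-like, led by Nrg4, Ebf2 and Cd36. The nuclei are therefore called the chosen nuclei here, and each class is described by itself. Because the classes were cut from the same counts, differences between them are descriptions with no test.

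The makeup of the chosen nuclei differed sharply between the 2 libraries. At 1 month the nephron classes and the Slc14a2-high cluster together held 399 of 512 nuclei (77.9%, 74.1% to 81.4%), and at 2 months 140 of 443 (31.6%, 27.3% to 36.2%). Urothelium-like nuclei went the other way, from 59 (11.5%, 8.89% to 14.6%) to 276 (62.3%, 57.6% to 66.8%). As a share of all eligible nuclei of the library, the former were 7.40% and 2.27%, and the latter 1.09% and 4.48%. Whether age, the dissection or the animals set this difference cannot be told apart with 1 library an age.

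**Figure D1:**
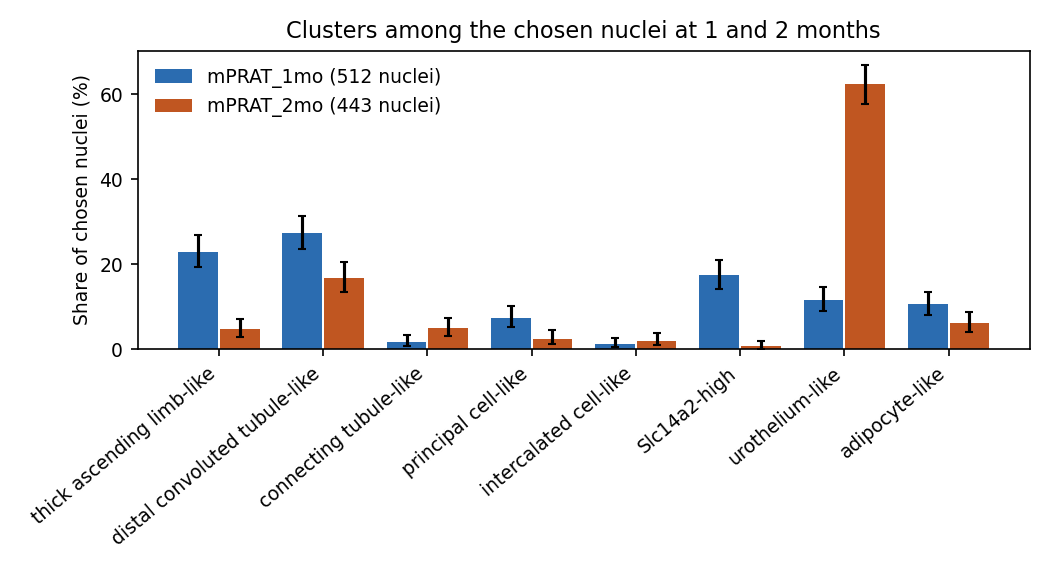
Share of the chosen nuclei in each class (percent, exact 95% binomial intervals) in the 1 month library (512 nuclei) and the 2 month library (443 nuclei). Urothelium-like nuclei were 11.5% at 1 month and 62.3% at 2 months, and Slc14a2-high nuclei 17.4% and 0.677%.

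As shares of all chosen nuclei, which the urothelium-like class dilutes at 2 months, the 3 larger named segments were smaller at 2 months and the 2 smallest larger. Among the 399 and 140 nuclei of the nephron classes and the Slc14a2-high cluster alone, distal convoluted tubule-like nuclei were 140 and 74, a larger part at 2 months. Thick ascending limb-like nuclei numbered 117 (22.9%, 19.3% to 26.7%) and 21 (4.74%, 2.96% to 7.16%). Distal convoluted tubule-like nuclei numbered 140 (27.3%, 23.5% to 31.4%) and 74 (16.7%, 13.4% to 20.5%). Principal cell-like nuclei, named after the sodium and water handling cells of the collecting duct, numbered 38 (7.42%) and 11 (2.48%). All 49 joined the connecting tubule-like class when marker genes were kept in the clustering. Connecting tubule-like nuclei went from 9 (1.76%) to 22 (4.97%) and intercalated-like nuclei, the acid and base secreting cells of the collecting duct, from 6 (1.17%) to 9 (2.03%). The nuclei that carry the connecting tubule-like name changed with the clustering, so its shares are not of the same nuclei: they were 13.3% and 8.58% with marker genes kept, 7.81% and 2.48% at resolution 0.3, and 16.1% and 9.29% without likely doublets. The adipocyte-like class held 54 and 27 nuclei, of which 42 of 81 (51.9%) had doublet scores in the range that would be removed.

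The most counted of the rule's genes in each nucleus is given next as a description, since those counts chose the nuclei. Slc12a3 was the most counted of the rule's genes in 151 nuclei at 1 month (29.5%) and 89 at 2 months (20.1%). Pkhd1 led in 112 and 294 nuclei, or 66.4% at 2 months. Slc14a2 led in 92 nuclei at 1 month and 2 at 2 months, Slc12a1 in 42 and 9, and Egf, the epidermal growth factor gene of the thick limb and convoluted tubule, in 68 and 13. Genes of different segments seldom met: Slc12a3 and Slc12a1 were seen together in 9 nuclei at 1 month and 1 at 2 months, and Slc14a2 and Slc12a3 in 20 and 1. By contrast Slc12a1 and Umod shared 79 and 19 nuclei, and Slc12a3 and Egf 128 and 65. Pkhd1 and Cdh1 shared 192 and 369, but each was common by itself, Pkhd1 in 411 and 437 nuclei and Cdh1 in 262 and 373. Slc14a2 was seen in only 8 nuclei at 2 months, too few to read its overlap there. The rule required at least 2 of its genes in every nucleus, so all these overlaps are descriptions.

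These levels chose the nuclei and carry no test. The summed level of Slc12a3 over all chosen nuclei was 2227 CPM (UMIs of the gene over all UMIs of the nuclei summed, scaled to 1000000; interval 2143 to 2313) at 1 month and 1330 (1289 to 1371) at 2 months. Slc12a1 was at 795 CPM (745 to 847) and 168 (154 to 184), and Umod at 227 (201 to 255) and 61.7 (53.2 to 71.1). Slc14a2 showed the widest gap, with 3393 CPM (3289 to 3499, 4071 UMIs) against 13.4 (9.60 to 18.2, 41 UMIs). Pkhd1 was close to level, at 1553 CPM (1483 to 1625) and 1716 (1670 to 1763), as was Cdh1 at 459 and 395. Egf was at 1608 and 561 CPM, and Epcam at 60.8 (47.7 to 76.5) and 25.5 (20.1 to 31.8). In these sums Slc14a2, Slc12a1, Umod, Egf and Epcam were thus lower at 2 months by more than a fold of 2, and Slc12a3, Pkhd1 and Cdh1 were not. Of the summed UMIs, urothelium-like nuclei held 366407 at 1 month and 2467061 at 2 months, and the nephron classes with the Slc14a2-high cluster 661458 and 380392. The levels thus describe a mix of nuclei that differed. Within thick ascending limb-like nuclei Slc12a1 was at 7646 and 10022 CPM and Umod at 1777 and 2264.

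Many nuclei lay at the rule's limit of 2 genes: the median nucleus showed 3 of the 8 genes at 1 month and 2 at 2 months, and 118 and 81 further nuclei met every condition but that one. The rule sum was exactly 3 in 37 nuclei at 1 month and 15 at 2 months, and 50 and 20 nuclei that met every other condition stopped at a sum of 2. The median sum was 15.5 and 16, the highest 528 and 461, and 356 and 327 nuclei reached a sum of 10. At least 1 fat tissue UMI was present in 197 and 252 of the chosen nuclei, and at least 1 proximal tubule UMI in 59 and 72. None of the chosen nuclei shared a barcode between the 2 libraries.

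RNA from burst cells can add stray UMIs to any nucleus, so the same genes were read in adipocyte nuclei of the same libraries, which held at least 3 UMIs of adipocyte genes and met neither the rule nor its proximal counterpart (2004 and 3585 nuclei with a median of 1881 and 1858 UMIs). There the 8 genes of the rule summed to 158 CPM (147 to 170) at 1 month and 117 (110 to 124) at 2 months, against 10321 and 4271 in the chosen nuclei, a gap that the rule itself fixed. Slc12a3 was at 24.1 and 15.9 CPM in adipocyte nuclei, Pkhd1 at 36.6 and 53.0, and Slc14a2 at 44.2 and 5.49. The stray level of Slc14a2 thus moved between the libraries in the same direction as the gene in the chosen nuclei.

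**Figure D2:**
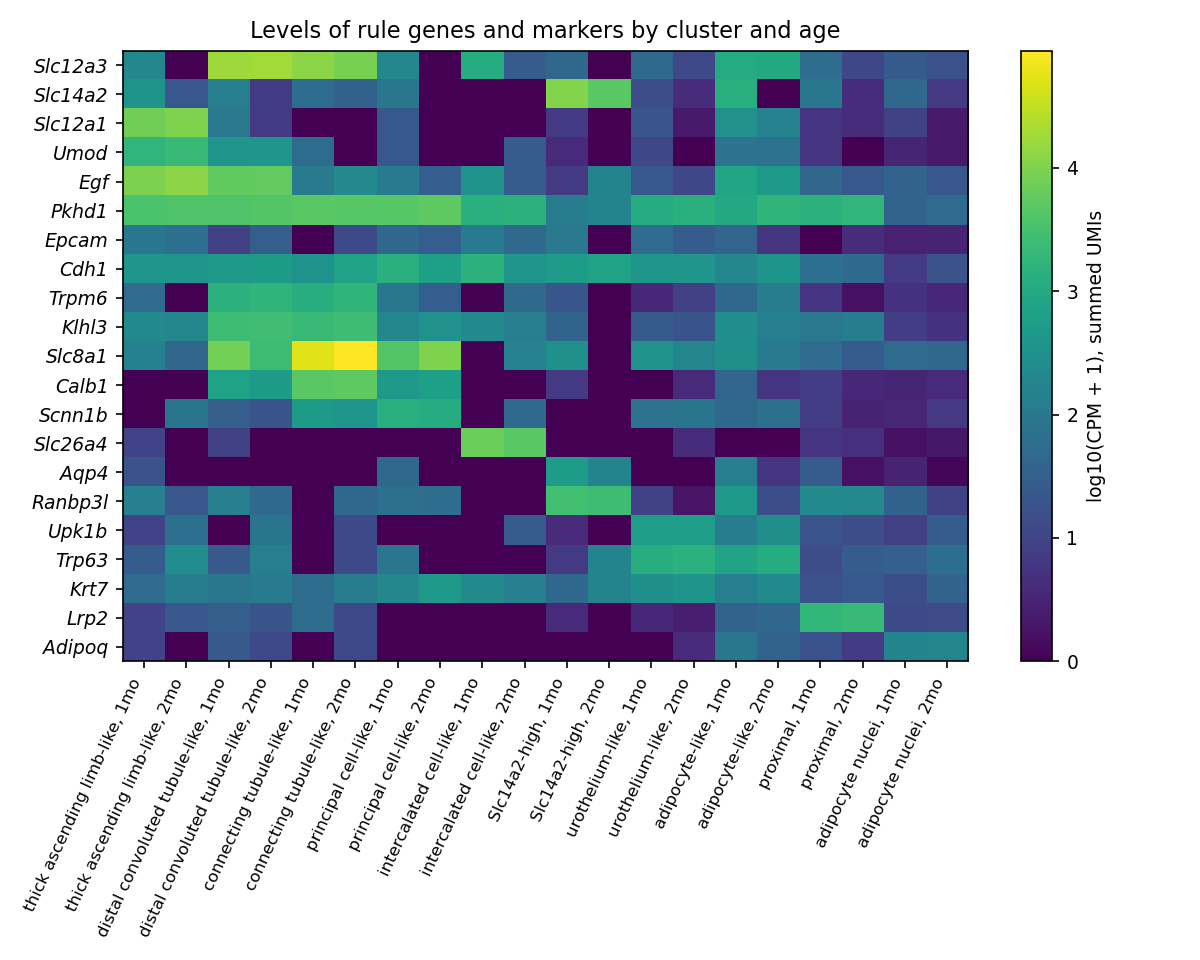
Level of 21 marker genes (colour, log10 of CPM plus 1) in each class at 1 and 2 months, with proximal tubule nuclei and adipocyte nuclei of the same libraries for reference. Slc12a3 is at 16988 and 18533 CPM in distal convoluted tubule-like nuclei, and lower but still high in connecting tubule-like nuclei. Slc12a1 stands out in thick ascending limb-like nuclei (7646 and 10022 CPM). Adipocyte nuclei held 24.1 and 15.9 CPM of Slc12a3.

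Thick ascending limb-like nuclei carried the salt transporter and the secreted proteins of that limb. Slc12a1, the furosemide-sensitive cotransporter, was at 7646 CPM (7149 to 8169) at 1 month and 10022 (9144 to 10962) at 2 months, Umod at 1777 and 2264, and Egf at 9257 and 12560. All 3 are genes of the rule, so their levels describe the choice of nuclei. Erbb4, a receptor tyrosine kinase of the epidermal growth factor family, was at 7855 and 8848 CPM, and Enox1 at 1768 and 1594. The calcium-sensing receptor Casr was at 409 CPM (301 to 544) and 1279 (978 to 1643), and the potassium channel Kcnj1, which recycles potassium to the lumen, at 383 and 398. Of 13 thick ascending limb markers, 12 stood out in the class, a count that also entered its naming. Among the 12, Cldn16, Cldn19 and Sostdc1 had under 20 UMIs each over all chosen nuclei. Slc12a3 had 200 CPM at 1 month and 0 UMIs at 2 months, which allows up to 62.9 CPM. With 21 nuclei at 2 months, under the 50 set for a comparison, these values stand side by side without a ratio.

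Read at equal depth, Slc12a1 was seen in 33 of 42 thick ascending limb-like nuclei at 1 month and 14 of 16 at 2 months once each was thinned to 1000 UMIs, with 75 and 5 shallower nuclei left out. Umod was seen in 24 of 42 and 11 of 16. Among adipocyte nuclei thinned likewise, Slc12a1 was seen in 21 of 1914 and 3 of 3124, a contrast that the rule fixed, since those nuclei had not met it. The class had median depths of 834 and 1503 UMIs.

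Distal convoluted tubule-like nuclei were the largest tubule class in both libraries in the main clustering, and are defined by the transporter Slc12a3, a gene of the rule whose level is therefore a description. Clustered anew without likely doublets, they numbered 113 at 1 month against 114 thick ascending limb-like nuclei. Slc12a3 was at 16988 CPM (16283 to 17716) in the 140 nuclei of 1 month and at 18533 (17882 to 19201) in the 74 of 2 months, a log2 ratio of 0.13 (0.05 to 0.20). Thinned to 1000 UMIs, Slc12a3 was seen in 42 of 42 nuclei at 1 month (98 shallower nuclei left out) and 46 of 46 at 2 months (28 left out). Before thinning it was seen in 136 of 140 and 72 of 74, at median depths of 782.5 and 1375.5 UMIs. With every thinned nucleus positive, these shares cannot show a difference. Among thinned adipocyte nuclei the share was 41 of 1914 (2.14%) and 65 of 3124 (2.08%).

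The regulators around that transporter were present at both ages. Klhl3, the adaptor that marks WNK kinases for degradation, was at 2577 and 2731 CPM, Wnk1 at 5029 and 4680, the kinase Stk39 (SPAK), which phosphorylates Slc12a3, at 1277 and 1217, and Wnk4 at 670 and 454 (log2 ratio -0.56). Trpm6, the magnesium channel of this segment, was at 1526 and 1756 CPM (log2 ratio 0.20, -0.06 to 0.46), and Cnnm2, a magnesium transport protein, at 1215 and 1338. The basolateral potassium channel subunits Kcnj10 (140 and 139 CPM) and Kcnj16 (553 and 636 CPM), which set the membrane voltage for salt transport, were close at both ages. Esrrg, a nuclear receptor of oxidative metabolism, was at 4827 and 5504 CPM. Abca13, a large membrane transporter gene that led this class, was at 10728 and 9391 CPM. Umod, at 374 and 387 CPM, was far under its level in the thick ascending limb-like nuclei.

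Across all 2882 genes with at least 20 UMIs over both libraries of this class, 275 were at least a fold of 2 higher at 2 months (9.54%) and 132 lower (4.58%), with a median log2 ratio of 0.11. Of 9 measured sodium chloride and potassium transport genes, Slc12a3 of the rule among them, none passed a fold of 2 in either direction. Their median was -0.01. At the shares called over all genes a list of 9 can hold none, so this count does not single the list out. Of 8 WNK and SGK pathway genes, 1 was higher and 1 lower. They were Cab39, a scaffold of SPAK (9 and 33 UMIs, log2 ratio 1.50), and the phosphatase inhibitor Ppp1r1a (45 and 26 UMIs, -1.15). With likely doublets removed and the remaining nuclei clustered anew, Cab39 came to 0.94 and Ppp1r1a to -0.97, both under a fold of 2. Of 18 nephron transcription factors, 1 was higher, Gata3, with 21 and 57 UMIs (log2 ratio 1.07), which came to 0.27 without the 5 deepest nuclei of each library. Ppargc1a, the coactivator of mitochondrial genes, had 97 and 226 UMIs, a log2 ratio of 0.86.

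**Figure D3:**
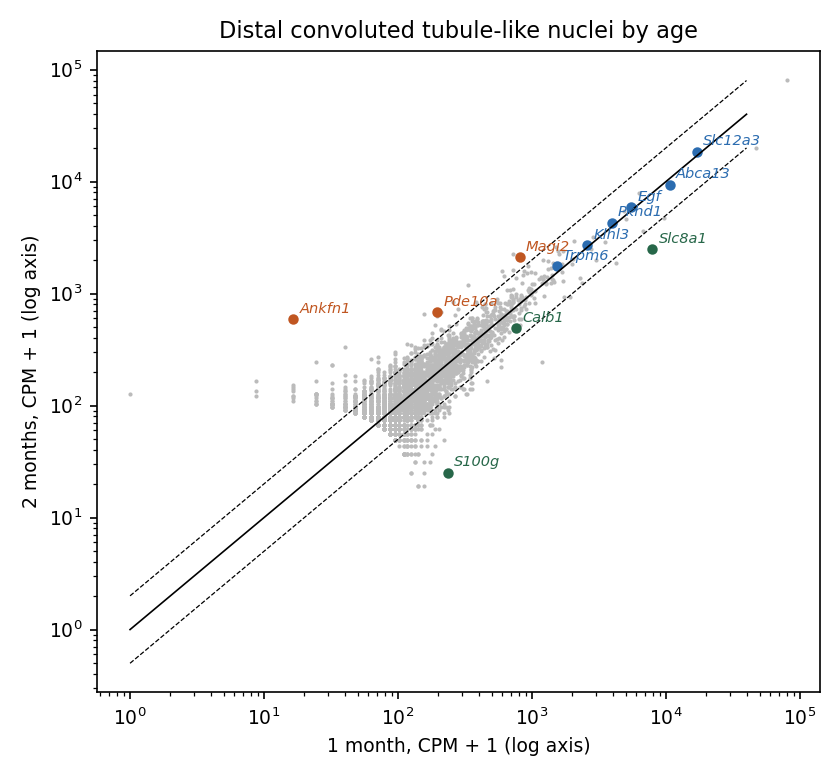
Level of each gene in distal convoluted tubule-like nuclei at 1 month (x axis) and 2 months (y axis), in CPM plus 1 on log axes, for genes with at least 20 UMIs; dashed lines mark a fold of 2. Slc12a3, Trpm6 and Klhl3 lie near the diagonal, Slc8a1 and S100g below it, and Ankfn1 and Pde10a above it.

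Several genes of calcium handling were lower at 2 months in this class. Of 13 measured calcium and magnesium genes, 3 were lower by a fold of 2 and none higher, and of 5 measured connecting tubule markers, 4 were lower. Slc8a1 and S100g are counted in both lists. Over all 2882 genes of the class, 132 were lower (4.58%). S100g, the calcium-binding protein calbindin-D9k, had 30 UMIs in 15 of 140 nuclei at 1 month and 4 UMIs in 4 of 74 at 2 months, a log2 ratio of -3.22. Slc8a1, the sodium and calcium exchanger, went from 7941 to 2488 CPM (1020 and 411 UMIs), a log2 ratio of -1.67 (-1.83 to -1.52). The parathyroid hormone receptor Pth1r had 21 and 8 UMIs (-1.73). Calb1, calbindin-D28k, stayed within a fold of 2, at -0.62. Klk1, the kallikrein protease of the connecting tubule, had 20 UMIs in 15 nuclei and 4 at 2 months (-2.64).

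These ratios differed between settings. With the marker genes kept in the clustering, 26 of these nuclei moved to the connecting tubule-like class, and the ratio of Slc8a1 came to -1.20. Most of the nuclei that left were of 1 month: the class went from 140 to 118 nuclei at 1 month and from 74 to 69 at 2 months. Its UMIs of Slc8a1 went from 1020 to 380 and from 411 to 243. With every nucleus weighted alike (a mean of CPM over nuclei) it came to -0.66, and thinned to 1000 UMIs Slc8a1 was seen in 21 of 42 nuclei at 1 month and 25 of 46 at 2 months. S100g, Klk1 and Egfem1, a further listed marker, had under 20 UMIs over both libraries with the markers kept and with likely doublets removed, so 3 of the 4 lower markers had no ratio there. Pth1r had no ratio in those settings either, and came to -0.69, under a fold of 2, as a mean over nuclei. Removing likely doublets also meant clustering the remaining nuclei anew. The class then held 113 and 67 nuclei, although only 3 and 2 of its nuclei had scores in the range removed, so membership changed as well. For S100g the ratio was -2.76 without the 5 nuclei with the most UMIs in each library and -2.16 as a mean over nuclei. Calb1 turned to 0.30 with the markers kept and to 0.19 with likely doublets removed.

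Most of the genes with the largest increases in this class rested on very few nuclei. Ankfn1 had 2 UMIs at 1 month and 97 at 2 months, but 93 of these came from 2 nuclei with 52 and 41. Those 2 nuclei were the deepest of the class, with 14228 and 12353 UMIs. Both held Slc12a3 (46 and 87 UMIs), both held urothelium markers (17 and 31 UMIs) and both had doublet scores in the range that would be removed. Of the other genes in the top 10, Galnt16 had 0 and 21 UMIs (15 in 1 nucleus), Mtus1 1 and 27 (20 in 1), Man1a 1 and 22 (17 in 1), Fmo5 1 and 20 (15 in 1) and Cadm2 5 and 55 (29 in 1). Ctnnd2 had 3 and 40 (18 in 1), Parm1 2 and 25 (11 in 1) and Ttc6 2 and 23 (12 in 1). Skap1, an adaptor protein gene known from T cells, was the exception, with 2 UMIs in 2 of 140 nuclei and 24 in 15 of 74, a log2 ratio of 3.14, or 3.33 without the 5 deepest nuclei. Urothelium markers summed to 148 CPM at 1 month and 430 at 2 months in this class, and to 158 and 194 without the 5 deepest nuclei of each library.

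Some genes of the lists stayed past a fold of 2 without those deep nuclei. Tsc22d2, a convoluted tubule marker of the TSC22 family, was at 623 and 1441 CPM (80 and 238 UMIs), a log2 ratio of 1.21 (0.85 to 1.59), and 1.48 without the 5 deepest nuclei. Invs, the cilium gene inversin, had 6 and 30 UMIs (1.94, then 2.62), and Ptger3, a prostaglandin E2 receptor, 5 and 18 (1.46, then 1.98). The mineralocorticoid receptor Nr3c2 was at 849 and 1253 CPM (0.56), under a fold of 2. Among lower genes, Gm19951, a predicted gene, had 153 UMIs in 87 nuclei at 1 month and 40 in 30 nuclei at 2 months (log2 ratio -2.29, -2.82 to -1.83), and Pck1, the gluconeogenic enzyme, 22 UMIs in 21 nuclei and 5. With likely doublets removed and the remaining nuclei clustered anew, Gm19951 was at -2.30. In that setting Pck1 went from -2.46 to -0.82 and Fam129a from -2.32 to -0.58, both under a fold of 2.

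Connecting tubule-like nuclei, few in both libraries, carried calcium transport genes at high levels. Slc8a1 was at 54105 CPM in 9 nuclei at 1 month and 89166 in 22 at 2 months, Calb1 at 4777 and 5187, Kl, the klotho co-receptor for FGF23, at 1889 and 2139, and the calcium channel Trpv5 at 278 and 273. They also held Slc12a3, at 12276 and 8680 CPM, and Scnn1b, a subunit of the epithelial sodium channel, at 500 and 398. S100g was at 333 and 296 CPM.

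Principal cell-like nuclei held subunits of the sodium channel and few UMIs of the water channel. Scnn1b was at 1327 and 1152 CPM, Scnn1g, another subunit, at 370 and 547, and Pkhd1 at 4614 and 5211. Aqp2, the water channel that vasopressin moves to the membrane, had 5 UMIs at 1 month (109 CPM) and 7 at 2 months (202 CPM), and Hsd11b2, which protects the mineralocorticoid receptor from glucocorticoids, was at 413 and 173 CPM. The vasopressin receptor Avpr2 had 2 UMIs and 0. At this depth the absence of Avpr2 or a low level of it could not be told apart.

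Intercalated-like nuclei carried genes of the base-secreting kind. Slc26a4 (pendrin), the chloride and bicarbonate exchanger of their luminal face, was at 6990 CPM in 6 nuclei at 1 month and 4726 in 9 at 2 months, Slc4a9 at 3667 and 2555, and Insrr, an alkali-sensing receptor, at 2521 and 1022. The proton pump subunit Atp6v0d2 was at 1375 and 1380 CPM. Slc4a1, the exchanger of the acid-secreting kind, had 1 UMI and 0, and Foxi1, the master regulator of these cells, 0 and 1.

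The Slc14a2-high cluster lay mostly in the 1 month library, with 89 nuclei against 3 at 2 months. Slc14a2, which encodes the UT-A urea transporters of the inner medulla, was at 10949 CPM (10603 to 11304) at 1 month, and 28 UMIs came from the 3 nuclei of 2 months. It was seen in 82 of 89 nuclei, and in 64 of 70 after thinning, against 80 of 1914 thinned adipocyte nuclei (4.18%), a contrast that the rule fixed as well. Alongside it stood Ranbp3l at 2813 CPM, the kidney transcription factors Pax2 at 2124 and Pax8 at 1656, and the water channel Aqp4 at 524 (181 UMIs). Aqp2 was at 101 CPM (35 UMIs), and Cdh1 at 515.

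Several genes of the other segments were low or at 0 in the cluster. Scnn1b and Fst had 0 UMIs, which allows up to 8.68 CPM each, Slc12a1 had 2 UMIs, and Slc12a3 was at 43.4 CPM. Pkhd1 was at 119 CPM, with 41 UMIs in 20 of 89 nuclei, well under the other classes. Aqp1, the water channel of the thin descending limb, had 4 UMIs. The marker list that scored best for the cluster, that of Schwann cells, had 0 markers standing out, so the cluster has no cell type name here.

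Urothelium-like nuclei, the largest class at 2 months, had uroplakins and basal keratins, and little of Slc12a3 or Umod. Upk1b, a uroplakin of the urothelial plaque, was at 581 CPM (506 to 665) at 1 month and 593 (563 to 624) at 2 months, Krt20, a keratin of surface cells, at 205 and 223, Krt5, a keratin of basal cells, at 84.6 and 92.0, and Trp63, the transcription factor p63 of basal epithelia, at 1234 and 1465. Gata3 (873 and 833 CPM) and Grhl2 (355 and 373 CPM), factors of epithelial identity, were near level. Pkhd1, at 1171 and 1362 CPM, and Cdh1, at 415 and 375, brought these nuclei into the rule. Slc12a3 was at 49.1 and 11.3 CPM, against 24.1 and 15.9 in adipocyte nuclei. Its 18 UMIs at 1 month came to 3 in the class clustered anew without likely doublets. Slc14a2 was at 13.6 and 3.24 CPM, against 44.2 and 5.49, and Umod had 0 UMIs at 2 months (up to 1.22 CPM). Pax8 was at 13.6 and 8.11 CPM.

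After thinning to 1000 UMIs, Upk1b was seen in 16 of 57 urothelium-like nuclei at 1 month and 112 of 276 at 2 months, against 16 of 1914 and 66 of 3124 adipocyte nuclei. Pkhd1 was seen in 41 of 57 and 219 of 276, and Slc12a3 in 2 of 57 and 6 of 276. Some transporters were present: at 2 months Scnn1b was seen in 19 of 276 (6.88%) against 9 of 3124 adipocyte nuclei (0.288%), and before thinning in 101 of 276 (36.6%) at a median of 7996.5 UMIs, against 30 of 3585 at 1858. At 1 month Scnn1b was seen in 1 of 57 thinned nuclei (1.75%, 0.0444% to 9.39%), against 8 of 1914 (0.418%). Slc8a1 was seen in 12 of 57 thinned nuclei at 1 month (21.1%), against 67 of 1914 (3.50%). At 2 months it was seen in 24 of 276 (8.70%), against 105 of 3124 (3.36%). The class joined 2 clusters that differed in mitochondrial RNA. Cluster 5 (40 and 227 nuclei) had a median of 6.72% mitochondrial UMIs and 9236 UMIs, and cluster 6 (19 and 49 nuclei) 0.321% and 2479.5. The nephron classes and Slc14a2-high nuclei had a median of 0.309%. All these medians are of nuclei under the limit of 10%.

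Between the ages, 679 of 9300 measured genes were higher by a fold of 2 at 2 months in urothelium-like nuclei (7.3%) and 298 lower (3.2%), with a median log2 ratio of 0.05. Of 9 urothelium markers only Upk2, the uroplakin of terminally differentiated cells, passed, with 2 and 71 UMIs (log2 ratio 2.21, 0.90 to 5.03). None of 14 transcription factors and none of 13 junction genes passed. At the shares called over all genes, lists of this size can hold few or none, so these counts are descriptions only. Pla2r1, the phospholipase A2 receptor, was at 65.5 and 248 CPM (1.91), seen in 14 of 59 and 160 of 276 nuclei, and the glutathione transferase Gstm1 at 216 and 695 CPM (1.68), seen in 27 of 59 and 228 of 276. Ksr2, a scaffold of the MAP kinase pathway, had a ratio of 2.50 and was seen in 61 of the 276 nuclei. These higher genes were spread over many nuclei.

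Genes lower at 2 months in urothelium-like nuclei often came from a single nucleus of the 59. Pde10a had 119 UMIs at 1 month, 118 of them in 1 nucleus, Cacna1c 50 with 48 in 1, and all 20 of Akr1b7, an adrenal and testis aldo-keto reductase, were in 1. Adrenal cortex markers summed to 60.0 CPM in this class at 1 month and 2.43 at 2 months, and their part in the result was not tested. Zbtb16, a glucocorticoid-responsive transcription factor, was spread, with 66 UMIs in 21 nuclei and a log2 ratio of -2.27.

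Over all chosen nuclei, urothelium markers were higher at 2 months and many tubule genes lower. Of 11158 measured genes, 647 were higher at 2 months by a fold of 2 (5.8%) and 1294 lower (11.6%). All 9 measured urothelium markers were higher (median log2 ratio 1.40), from Krt5 at 1.07 to Upk2 at 2.50. Of 16 sodium chloride and potassium genes, 8 were lower and none higher (median -1.19), among them Slc12a1 (-2.23) and the pump regulator Fxyd2 (-1.74). Of 22 nephron transcription factors, 8 were lower and none higher, with Sim2 at -4.51, Pax8 at -4.08 and Pax2 at -2.68. Of 14 hormone receptor genes, 6 were lower, among them Pth1r (-2.27) and the glucagon receptor Gcgr (-2.16). The rule used this contrast's cells, so these counts are a description. Urothelium-like nuclei held 366407 of the summed UMIs at 1 month and 2467061 at 2 months, so the ratios compare different mixes of nuclei. Without urothelium-like and adipocyte-like nuclei, 509 genes were higher and 918 lower of 7040.

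Genes ranked with 10 CPM added are given here with their ratios at 1 CPM. Gstm1 (94.2 and 604 CPM, log2 ratio 2.67, 2.41 to 2.95) and Pla2r1 (35.0 and 220 CPM, 2.62) ranked highest at 2 months, and the 10 included Ankdd1a (2.39) and the cytochrome Cyp4f15 (2.00), with the serotonin receptor Htr4 (1.86) and Fmo5 (1.84), both leading genes of the urothelium-like class. Without urothelium-like and adipocyte-like nuclei Pla2r1 came to 0.63, under a fold of 2, Gstm1 to 2.25 and Galnt16 from 1.98 to 3.19. Ankdd1a, Cyp4f15, Snx31 and Srd5a1, all among the 10, had too few UMIs for a ratio there. Lowest were Slc14a2 (-7.88), Aqp4 (-6.72, with 2 UMIs at 2 months), Ranbp3l (-6.20), Pde1c (-5.23), Rtn1 (-5.11) and Lhfpl2 (-4.92), leading genes of the Slc14a2-high cluster, and the 10 also held Pax8, another of its leading genes, and Gramd1b (-4.76), Mgat4c (-4.40) and Col4a3 (-3.96), which were not among them. Without urothelium-like and adipocyte-like nuclei these genes stayed lower but most moved, Slc14a2 to -6.05, Ranbp3l to -4.26, Pde1c to -3.18, Mgat4c to -2.33, Pax8 to -2.31 and Col4a3 to -1.86. Spp1 (osteopontin), secreted by distal tubules, was at -4.41, Aqp2 at -3.58, and the keratins Krt8 and Krt18 at 1.08 and 1.21.

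Set against proximal tubule nuclei of the same libraries (367 at 1 month and 392 at 2 months, chosen by Slc34a1, Lrp2, Cubn and Slc5a12), the chosen nuclei differed in many genes at each age. At 1 month 2124 of 9079 genes were higher in the chosen nuclei by a fold of 2 (23.4%) and 1270 lower (14%), and at 2 months 2802 of 11323 higher (24.7%) and 1845 lower (16.3%). Without urothelium-like and adipocyte-like nuclei the balance at 2 months turned, to 1302 higher and 1665 lower. All 13 proximal tubule markers were lower at both ages, as the rule required for the sum of 4 of that tubule's genes. Of the sodium chloride and potassium genes, 10 of 16 were higher and 1 lower at 1 month, and 8 of 14 higher and 4 lower at 2 months. That list includes Slc12a1 and Slc12a3, genes of the rule, which itself favoured them in the chosen nuclei. The genes outside the rule with the largest values in both libraries included Abca13 (5.67 and 6.54), Slc8a1 (5.24 and 6.79) and the transcription factor Mecom (4.92 and 5.63). Among them were also Rab27b, a vesicle GTPase (6.00 and 5.84), and Trp63 (5.05 and 5.54), a listed urothelium marker. Of the 2483 and 9077 UMIs of Slc8a1 in the chosen nuclei, 974 and 7838 lay in connecting tubule-like nuclei. Of the 1779 and 2163 UMIs of Abca13, 1378 and 1551 lay in distal convoluted tubule-like nuclei. Such ratios thus describe a mix of classes. Pkhd1 did not set the chosen nuclei apart, being at 1531 CPM (1416 to 1653) and 1828 (1761 to 1898) in proximal nuclei.

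Nuclei meeting the rule were rare outside mPRAT. At 6 months they were 73 of 11412 eligible mPRAT nuclei (0.640%, 0.502% to 0.804%), and after cold exposure 187 of 3781 (4.95%, 4.28% to 5.69%). In the other 8 libraries they were 11 of 80158, with at most 6 in any (iWAT after cold exposure) and 0 in 4. The young mPRAT libraries held most nuclei meeting the rule only under the mitochondrial limit: a further 5440 met it over the limit in the cold-exposed library, whose share without the limit was 50.5%, against 13.3% and 20.2% in the young ones.

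**Figure D4:**
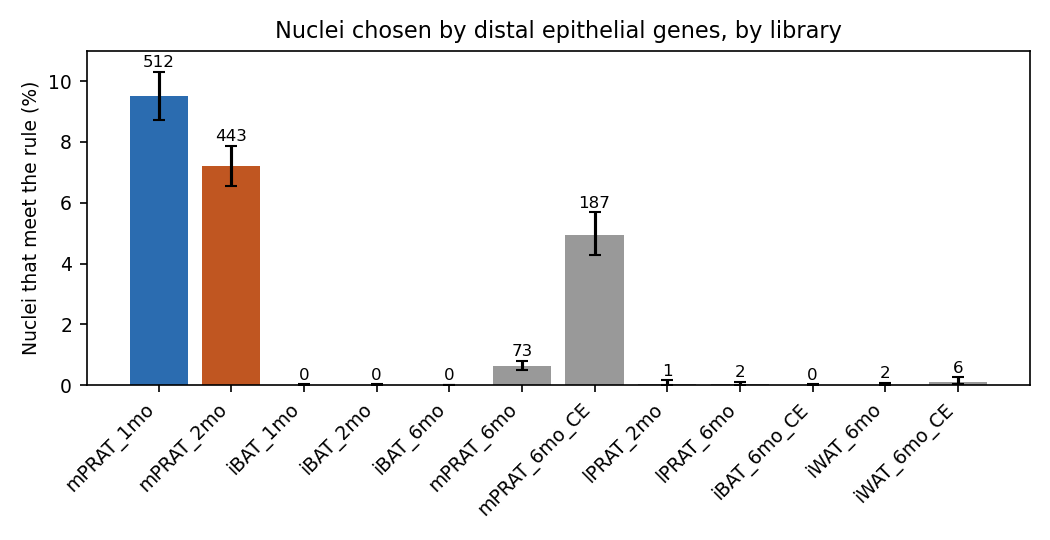
Percent of eligible nuclei meeting the rule in each of the 12 libraries, with exact 95% binomial intervals. The 1 month and 2 month mPRAT libraries stand at 9.50% and 7.20%, the cold-exposed mPRAT library at 4.95% and the 6 month mPRAT library at 0.640%.

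The older mPRAT nuclei had a different blend of the same genes. At 6 months Pkhd1 led in 45 of 73 nuclei and Slc14a2 in 21, with 6090 UMIs of Slc14a2 in 24 nuclei (10535 CPM), 1 UMI of Slc12a3 and Slc12a1 at 84.8 CPM. After cold exposure Pkhd1 led in 165 of 187 nuclei, and Slc12a3, Slc14a2, Slc12a1 and Umod had 0 UMIs each, which allows up to 2.27 CPM. Urothelium genes were present in both, with Upk1b at 329 and 611 CPM and Trp63 at 644 and 1511. By the same measure Slc14a2 led in 92 nuclei at 1 month and 2 at 2 months, with 74 and 25 more over the mitochondrial limit.

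Further nuclei met the rule but for the limit on mitochondrial UMIs, 263 at 1 month and 1152 at 2 months. Their median mitochondrial share was 20.5% and 21.2%. Pkhd1 led in 144 of the 263 (54.8%) and 949 of the 1152 (82.4%), Slc14a2 in 74 and 25, and Slc12a3 in 1 and 1. Slc12a3 was at 12.0 and 8.20 CPM in them, under its level in adipocyte nuclei, and Upk1b at 367 and 614. Slc14a2 was seen in 101 of the 263 and 44 of the 1152, and Slc12a3 in 15 and 47. In adipocyte nuclei Slc12a3 was seen in 87 of 2004 and 126 of 3585. The nuclei over the limit had median depths of 5983 and 6535.5 UMIs, against 1881 and 1858 in adipocyte nuclei, a gap that stands beside the lower CPM of Slc12a3.

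**Figure D5:**
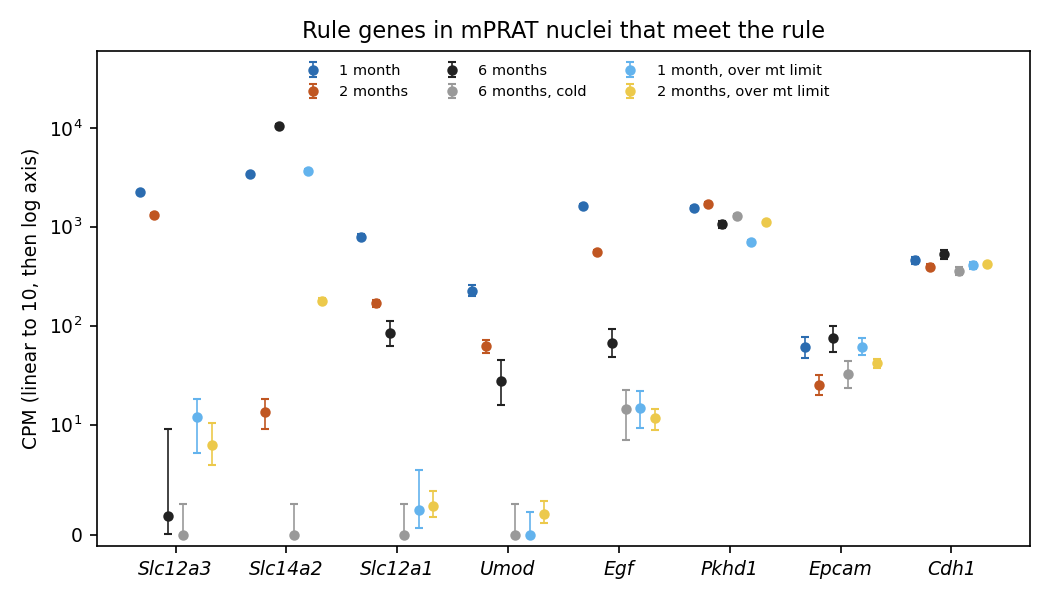
Level of the rule's genes in nuclei meeting the rule in 4 mPRAT libraries and in those over the 10% mitochondrial limit at 1 and 2 months (CPM with exact 95% Poisson intervals; axis linear to 10 and logarithmic above). Slc12a3 is at 2227 and 1330 CPM at 1 and 2 months and at 12.0 and 8.20 CPM in nuclei over the limit, whereas Pkhd1 is between 702 and 1716 CPM in all 6 sets.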

How the data were processed

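Nuclei of 12 libraries were sequenced with droplet 3′ chemistry, 1 library per group. The deposited values are raw UMI counts per gene (32285 genes) and barcode, made by the authors with Cell Ranger 7.0.0 on mm10, per the submitters' processing notes; the lowest barcode held 500 UMIs. Total counts per library were 5461133 to 87035783. Here eligible nuclei were filtered, chosen by the rule, and clustered (scanpy 1.11.5, 2000 variable genes without marker-list, mitochondrial, ribosomal and sex-linked genes, 20 principal components, 15 neighbours, Leiden resolution 0.6). A class took the name of the best-scoring list with at least 3 markers that stood out (20 CPM or more and a fold of 2 over other clusters), a rule set after seeing the data. The members and lists were chosen with earlier results of these data known: 20 marker lists (148 genes) and 12 pathway lists (186 genes). Counts were summed per library and class. A log2 ratio has 1 CPM added, with intervals from 2000 Poisson redraws, for genes whose counts in both libraries sum to 20 or more; a fold of 2 stands in for a test, since none was possible. Named were the rule's genes, per list the 2 to 4 genes with the highest levels or largest ratios, and the 10 genes with the largest and smallest ratios (10 CPM added); genes given for their spread over nuclei or as absent were chosen after their values were seen. Doublets were scored (scrublet) and kept in the main values. Where likely doublets were removed, values of classes come from a new clustering of the remaining nuclei, so class membership changed too. Levels of different genes are not per length. Classes were compared between ages from 50 nuclei in each. The added alternatives were 3 on segments and 2 on members, all chosen after seeing the data. Tools included Python 3.11.15, numpy 2.4.6, scipy 1.17.1, R 4.3.3 and edgeR 4.0.16 (TMM scaling only). The ratio computation was tested on simulated counts. Coordinates are those of GRCm38; Slc14a2 and Cdh1 upstream sequences were not used here.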

Additional observations from a re-analysis of the deposited data

Results flagged for a closer look

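Nuclei over the mitochondrial limit that met the rest of the rule were outside the main comparisons, and they numbered 263 at 1 month and 1152 at 2 months. The summed count of the rule's genes chose them, so its height in them is no finding. In CPM Slc12a3 was lower in them than in adipocyte nuclei, but they were deeper, with a median of 5983 and 6535.5 UMIs against 1881 and 1858. By nuclei with a UMI, Slc12a3 was seen in 15 of 263 and 47 of 1152, against 87 of 2004 and 126 of 3585 adipocyte nuclei.

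Of 2707 genes measured in both classes, 3 had ratios between ages that pointed opposite ways in distal convoluted tubule-like and urothelium-like nuclei, each past a fold of 2. The difference was not tested, and both ratios come from the same 2 libraries. The ratios are of CPM, and the urothelium-like class held 59 nuclei at 1 month and 276 at 2 months, so equal UMIs mean a lower level at 2 months. Pde10a, a cyclic nucleotide phosphodiesterase, had a log2 ratio of 1.81 in the former (25 and 113 UMIs, 65 of the latter in 1 nucleus) and -6.41 in the latter (119 and 7 UMIs, 118 of the former in 1 nucleus). Magi2, a junction scaffold, was at 1.39 (104 UMIs in 58 nuclei and 351 in 61) and -2.63 (34 UMIs in 9 nuclei and 35 in 14). Tox, a nuclear factor, was at 1.16 (9 and 26 UMIs) and -1.30 (41 and 111 UMIs).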

How the results depend on the processing

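Of 162 main values under alternatives, 117 moved by less than their counting interval (or, for counts, 1.5 times) and 45 by more. Of 367 values of the genes named by rank, 277 moved by less and 90 by more, and 0 changed sign. Ranked genes with under 20 UMIs in an alternative had no value there and are not among the 367. Among other genes, Calb1 changed sign in distal convoluted tubule-like nuclei. In urothelium-like nuclei Slc12a3 went from -2.02 to 0.36 without likely doublets, clustered anew, and Trpm6 from 1.22 to -0.32 as a mean over nuclei. No paired analysis was possible because each group holds 1 library, and for that reason no library could be left out. The share of eligible nuclei chosen at 1 month was 13.3% without a mitochondrial limit, 8.38% from 500 genes, 8.29% at a sum of 5 and 4.38% without Pkhd1, Epcam and Cdh1. At 2 months it was 20.2% without the limit, 4.70% at a limit of 5% and 1.40% without the 3 genes. For mPRAT at 6 months these were 1.36%, 0.484% and 0.0438%, and after cold 50.5%, 2.79% and 0%, or 4.21% at a sum of 5. The other 8 libraries gave 57 nuclei without the limit, 3 at a sum of 5 and 1 without the 3 genes. Counts of higher and lower genes over all chosen nuclei were 244 and 649 with 10 CPM added and 986 and 3906 with no minimum, and 1277 higher as a mean over nuclei. The share of calls that were higher, 33.3% as reported, was 44.6% at a limit of 5%, 45.8% with TMM (899 and 1066, median shifted by 0.14), 47.6% as a mean over nuclei and 20.2% with no minimum. Against proximal nuclei, no minimum gave 4836 and 3908 at 1 month and 2837 lower at 2 months, where 10 CPM gave 1748 higher. Leaving out urothelium-like and adipocyte-like nuclei gave 1302 higher at 2 months, a higher share of 43.9% against 60.3%. Distal convoluted tubule-like nuclei had 154 higher genes without the 5 deepest nuclei of each library, and a higher share of 57.0% against 67.6% as a mean over nuclei. Urothelium-like nuclei had 145 and 88 with 10 CPM and 1055 and 605 as a mean over nuclei. The distal convoluted tubule-like share was 23.0% at 1 month with markers kept and 21.7% at 2 months at resolution 0.3. The connecting tubule-like share at 1 month was 13.3%, 7.81%, 4.10% and 16.1% with markers kept, at resolution 0.3, at resolution 1 and without likely doublets, and at 2 months 8.58% and 2.48% for the first 2 and 9.29% without doublets. In those settings, resolution 1 excepted, no class had the principal cell-like name. With markers kept all 49 such nuclei were in the connecting tubule-like class, so that name covers different nuclei; membership in the other settings was not followed. Without likely doublets the adipocyte-like share was 4.24% and 2.14%. Stray levels of the rule's genes were 144 and 102 CPM from 10 UMIs. Depth limits genes with few UMIs, and single nuclei limit the classes under 50.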
